A study of Homo sapiens with 9 samples.

Results

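The genes described here are 10 long noncoding RNAs known from hypoxia and stress, found by symbol among the 58735 named rows of the deposited gene tables: NEAT1, MALAT1, KCNQ1OT1, LUCAT1, MIR210HG, MIR31HG, PVT1, GAS5, SNHG1 and SNHG12. RNA was sequenced from MDA-MB-231, an established human cell line from a triple-negative breast cancer, kept at low oxygen for 6 h in both groups. By genotype label, 6 libraries were sgL1 and 3 were sgCtrl, and all 9 share the cell line and the hypoxia. The design text names UFL1 and UFM1, the ligase and the modifier of UFMylation, as the targeted genes. From this, sgL1 was taken to stand for a guide that targets UFL1, and sgCtrl for a control guide. The labels do not say so. No library is labelled for UFM1, and the labels do not say whether a group is a clone or a pool, nor whether its libraries came from separate cultures.

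Long noncoding RNAs are transcripts without a long reading frame that act as RNA or merely carry smaller RNAs in their introns. In hypoxia the transcription factor HIF raises some of them, NEAT1 and MIR210HG among the known cases, while nuclear RNAs such as MALAT1 and the hosts of small nucleolar RNAs (snoRNAs) are used as readouts of nuclear organisation, growth and RNA decay. LUCAT1, first described in lung cancer and smoke-exposed airway cells, is known as a stress RNA induced by the oxidative stress factor NRF2.

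LUCAT1 was the 1 gene of the 10 that changed: it measured 13.8 ± 1.14 CPM (counts scaled to the size of each library; SD, n = 3) in sgCtrl and 30.4 ± 2.26 CPM (SD, n = 6) in sgL1, a 2.20-fold difference. MIR210HG was higher and PVT1 lower in every sgL1 library than in every sgCtrl library, but neither passed the test over all genes. NEAT1, MALAT1, KCNQ1OT1, GAS5, SNHG1 and SNHG12 overlapped between the groups, and MIR31HG had no counts. Of the 9 genes tested, 1 rose (LUCAT1), against 5.52% of all 15242 genes tested, and 0 fell, against 3.98% (Benjamini-Hochberg adjusted p under 0.05 in edgeR's quasi-likelihood test). With edgeR's p left unadjusted, 4 of the 9 were under 0.05, LUCAT1, MIR210HG, PVT1 and SNHG1, against 21.5% of all genes tested. The groups did not overlap for 3 of the 9, against 14.0% of all genes tested. With 9 genes, these shares are not read as a property of the group.

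**Figure D1:**
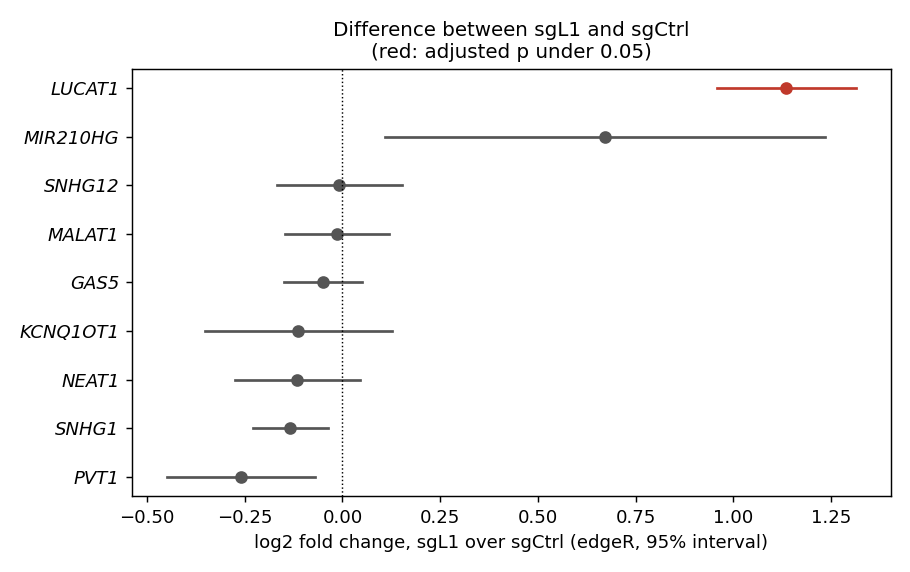
The x axis gives the log2 fold change of sgL1 over sgCtrl for the 9 genes tested, with points for edgeR's estimate and bars for its 95% interval. LUCAT1 alone, in red, has an adjusted p under 0.05. The intervals of MIR210HG, PVT1 and SNHG1 miss 0, and those of NEAT1, MALAT1, GAS5, SNHG12 and KCNQ1OT1 hold it.

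The start regions of LUCAT1 and MIR210HG are shown because these 2 genes stood highest above sgCtrl and because letters known from hypoxia and NRF2 elements can be read there. The windows are RefSeq's, from 250 bases before to 50 bases after an annotated start (GRCh38.p14), and 7 of the 10 genes had 1 or more. The LUCAT1 window is chr5:91314353-91314652 on the minus strand, and its capitals mark the match to TGACNNNGC, the NRF2 element, read on the opposite strand. The MIR210HG window is chr11:568408-568707 on the minus strand, and its capitals mark ACGTG and GCGTG, cores of the hypoxia response element. The last sequence is the mature miR-210-3p, whose hairpin lies in an intron of MIR210HG, with the seed (bases 2 to 8) in capitals.
LUCAT1: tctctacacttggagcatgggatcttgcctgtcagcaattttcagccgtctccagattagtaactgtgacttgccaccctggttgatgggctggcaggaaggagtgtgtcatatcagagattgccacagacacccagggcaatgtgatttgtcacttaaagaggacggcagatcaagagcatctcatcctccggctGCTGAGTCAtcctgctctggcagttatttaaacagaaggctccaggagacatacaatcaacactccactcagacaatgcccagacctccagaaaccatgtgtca
MIR210HG: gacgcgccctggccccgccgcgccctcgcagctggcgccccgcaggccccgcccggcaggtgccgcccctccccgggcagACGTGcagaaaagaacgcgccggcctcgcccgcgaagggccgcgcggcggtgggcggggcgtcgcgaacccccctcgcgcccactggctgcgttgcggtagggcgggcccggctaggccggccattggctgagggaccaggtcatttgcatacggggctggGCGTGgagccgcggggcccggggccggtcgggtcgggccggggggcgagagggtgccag
hsa-miR-210-3p: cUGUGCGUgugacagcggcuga

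Both strands of each window were searched for the hypoxia cores and the NRF2 element. A search for TGACTCA, the AP-1 element, was added after the data were seen. The LUCAT1 window held 0 hypoxia cores. Its NRF2 letters, GCTGAGTCA on the gene's strand, begin 54 bases before the start and overlap the AP-1 letters, which begin 52 bases before it. The MIR210HG window held ACGTG 170 bases and GCGTG 9 bases before the start, and no NRF2 letters. Such matches are common: among all 35116 windows, 48.4% held a hypoxia core, 13.3% the NRF2 element and 4.95% the AP-1 element. Hypoxia cores were also present in the windows of SNHG12, SNHG1 and MALAT1, whose levels overlapped between groups. Cores were absent from the windows of GAS5 and MIR31HG. The NRF2 element was not particular to LUCAT1 either, since a window of MALAT1 held 2 matches to it. The other MALAT1 window and those of SNHG12, SNHG1, GAS5 and MIR31HG held no NRF2 letters. A match describes letters and not a bound site.

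The 9 libraries held 15420073 to 17038409 counts on named genes, of which long noncoding RNAs took 0.845% to 0.879% and the 10 genes together a summed 553.5 to 643.7 CPM before TMM scaling. Where a gene had 0 counts, a level of 3 counts, or 0.177 to 0.194 CPM by library, is still possible. Libraries of a group typically varied by 6.53%, edgeR's common biological coefficient of variation. Mesenchymal breast markers summed to 5887 to 5949 CPM in sgCtrl and 5564 to 5824 CPM in sgL1, with SPARC near 0 at 0.529 and 0.540 CPM. Of the 7 tested, 2 rose, CD44 at 0.34 and LOX at 0.51 on the log2 scale, and 3 fell, AXL at -0.25, CAV1 at -0.32 and EGFR at -0.15. Summed luminal markers were at 47.5 to 51.0 CPM in sgCtrl and 60.5 to 73.5 CPM in sgL1. Of the 6 tested 2 rose, SPDEF from 16.9 to 26.0 CPM and FOXA1 from 16.6 to 22.8 CPM in group means. The defining ESR1 and CDH1 stayed below 0.5 CPM in both group means. Leukocyte markers summed to 1.60 to 2.57 CPM and 1.68 to 3.25 CPM, with CD14 highest at means of 1.56 and 1.72 CPM and CD3E at 0 throughout. Fibroblast markers summed to 11.4 to 14.4 CPM and 15.8 to 20.4 CPM, with COL1A1 highest at means of 7.52 and 9.33 CPM. LUM was at 0 throughout, and 1 of the 2 tested, PDGFRB, rose.

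UFL1 (chromosome 6, 96521595 to 96555276, GRCh38) measured 27.4, 25.3 and 25.3 CPM in sgCtrl, 15.2, 12.9 and 12.9 CPM in sgL1 libraries 1 to 3, and 22.8, 20.02 and 21.2 CPM in sgL1 libraries 4 to 6. All 6 sgL1 libraries lay below sgCtrl, libraries 1 to 3 farther than 4 to 6. With all 9 libraries its log2 fold change came to -0.57 (SE 0.20) and missed the threshold (edgeR adjusted p = 0.126). With libraries 1 to 3 alone it was -0.93 (edgeR adjusted p = 1.24e-08) and with 4 to 6 alone -0.28 (edgeR adjusted p = 0.0145). UFM1 gave 0.17 (SE 0.06; edgeR adjusted p = 0.0862). Protein was not measured.

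Levels were compared between genes as the deposited FPKM, which divides counts by gene length. FPKM does not correct for RNA without a poly(A) tail, which was scarce in these libraries. GAS5 stood highest, at 40.8 to 48.3 FPKM over the 9 libraries, followed by SNHG1 at 32.1 to 38.1 FPKM. NEAT1 came next at 6.58 to 8.6 FPKM, then SNHG12 at 5.52 to 6.62 FPKM and MALAT1 at 5.15 to 6.31 FPKM. These 3 neighbours overlap in that order. PVT1 followed at 2.00 to 2.59 FPKM, LUCAT1 at 0.789 to 1.98 FPKM, MIR210HG at 0.375 to 0.850 FPKM and KCNQ1OT1 at 0.0767 to 0.109 FPKM. Among the 7745 long noncoding RNAs with a mean FPKM above 0, GAS5 ranked 5, SNHG1 ranked 8 and KCNQ1OT1 ranked 3794. The length used decides much of this order: by CPM, NEAT1 ranked 4 rather than 60 and KCNQ1OT1 ranked 164. The lengths behind the FPKM, worked out from counts and FPKM, equalled the joined exons of all isoforms in GENCODE release 29 for all 9 genes with counts, from 2321 bases for MIR210HG to 91667 for KCNQ1OT1. LUCAT1 was divided by 16538 bases, the union of 55 annotated isoforms, so its FPKM is low beside its counts.

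**Figure D2:**
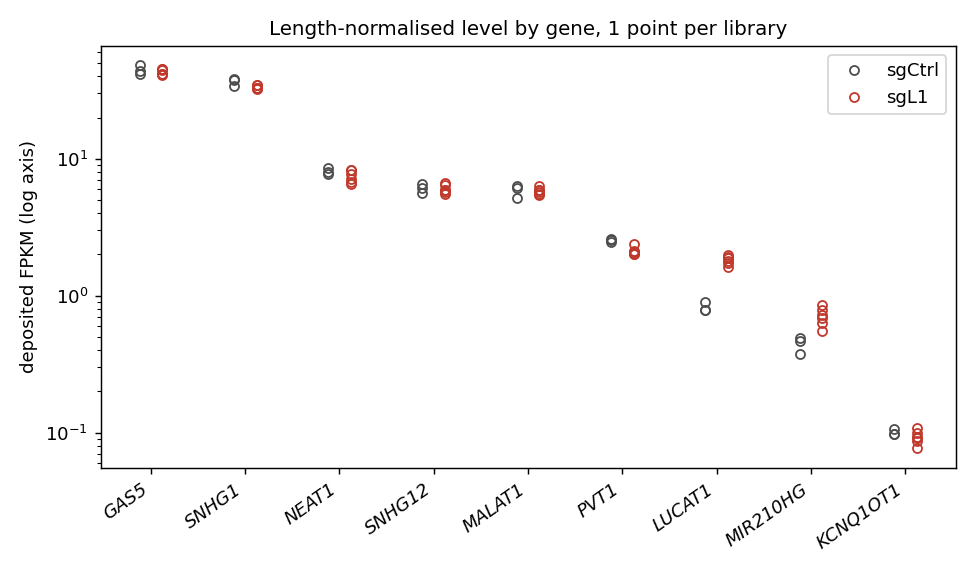
The y axis (log scale) gives the deposited FPKM of each gene, with 1 point per library, grey for sgCtrl and red for sgL1. GAS5 and SNHG1 lie above 30 FPKM in every library, KCNQ1OT1 lies near 0.1 FPKM, and for LUCAT1 the red points stand apart from the grey.

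Among the RNAs known as induced by hypoxia or oxidative stress, LUCAT1 (ENSG00000248323.6, chromosome 5, 91054834 to 91314547, minus strand, GRCh38) had 237, 210 and 205 counts in sgCtrl and 510, 506, 508, 501, 456 and 451 counts in sgL1 libraries 1 to 6. In CPM these were 15.1, 13.2 and 13.1 against 33.0, 31.4, 32.0, 29.9, 26.9 and 28.8. The lowest sgL1 library stood well above the highest sgCtrl library. The log2 fold change was 1.14 (SE 0.09), a ratio of 2.20 with a 95% interval of 1.94 to 2.49 (edgeR adjusted p = 1.12e-10), and all 6 sgL1 libraries showed it. With sgL1 libraries 1 to 3 alone it was 1.22 (edgeR adjusted p = 1.07e-11) and with 4 to 6 alone 1.05 (edgeR adjusted p = 2.91e-13). The difference between these library sets was not tested. LUCAT1 is annotated as antisense, overlaps the span of ADGRV1 on the opposite strand and shares 0 exonic bases with it. ADGRV1, an adhesion receptor, gave a log2 fold change of -0.01 (edgeR adjusted p = 0.970). In bulk RNA, more cells expressing a gene and more RNA per cell cannot be told apart.

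The genes whose pattern lay closest to that of LUCAT1 were TMEM132A, PFKFB4 and CDKN1A. Closeness was the root mean square difference of centred log2 CPM over the 9 libraries among 13637 genes of at least 1 CPM, and came to 0.0870, 0.102 and 0.106. TMEM132A, a membrane protein, measured 244.3 CPM in sgL1 and 114.1 CPM in sgCtrl. PFKFB4, a regulator of glycolysis and HIF target, measured 140.8 against 70.3 CPM. CDKN1A, an inhibitor of cyclin-dependent kinases, measured 146.2 against 73.5 CPM. Being picked for a pattern that separates the groups, these genes had to differ between them, so their values are a description with no test.

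MIR210HG (ENSG00000247095.2, chromosome 11, 565660 to 568457, minus strand) is the host transcript of miR-210, the best known hypoxia-induced miRNA. It had 18, 14 and 17 counts in sgCtrl and 25, 32, 27, 25, 22 and 29 counts in sgL1 libraries 1 to 6. In CPM these were 1.15, 0.878 and 1.09 against 1.62, 1.99, 1.70, 1.49, 1.30 and 1.85. Every sgL1 library lay above every sgCtrl library, the closest pair being sgL1 5 and sgCtrl 1. The ratio was 1.59 with a 95% interval of 1.08 to 2.35 (log2 fold change 0.67, SE 0.27), and missed the threshold over all genes (edgeR adjusted p = 0.137). It passed with limma on log2(FPKM + 1) and log2(FPKM + 0.1), with adjusted p = 0.0439 and 0.0471. At a median of about 25 counts the counting error of a library is about 20%, and the counts are of the host transcript, not of the mature miRNA.

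MIR31HG (ENSG00000171889.3, chromosome 9, 21455642 to 21559669, minus strand), the host of miR-31 and a known partner of HIF, had 0 counts in all 9 libraries, which allows up to 0.194 CPM in the shallowest. It was not tested. Its neighbours MTAP, an enzyme of methionine salvage, and IFNE, an interferon, were also at 0 in all 9. These zeros are given as listed, and their cause was not tested. How reads in overlapping genes were counted is not stated in the sources used here. MIR31HG shares 303 of its 745 exonic bases with the pseudogene IFNWP19 and 0 with IFNE.

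**Figure D3:**
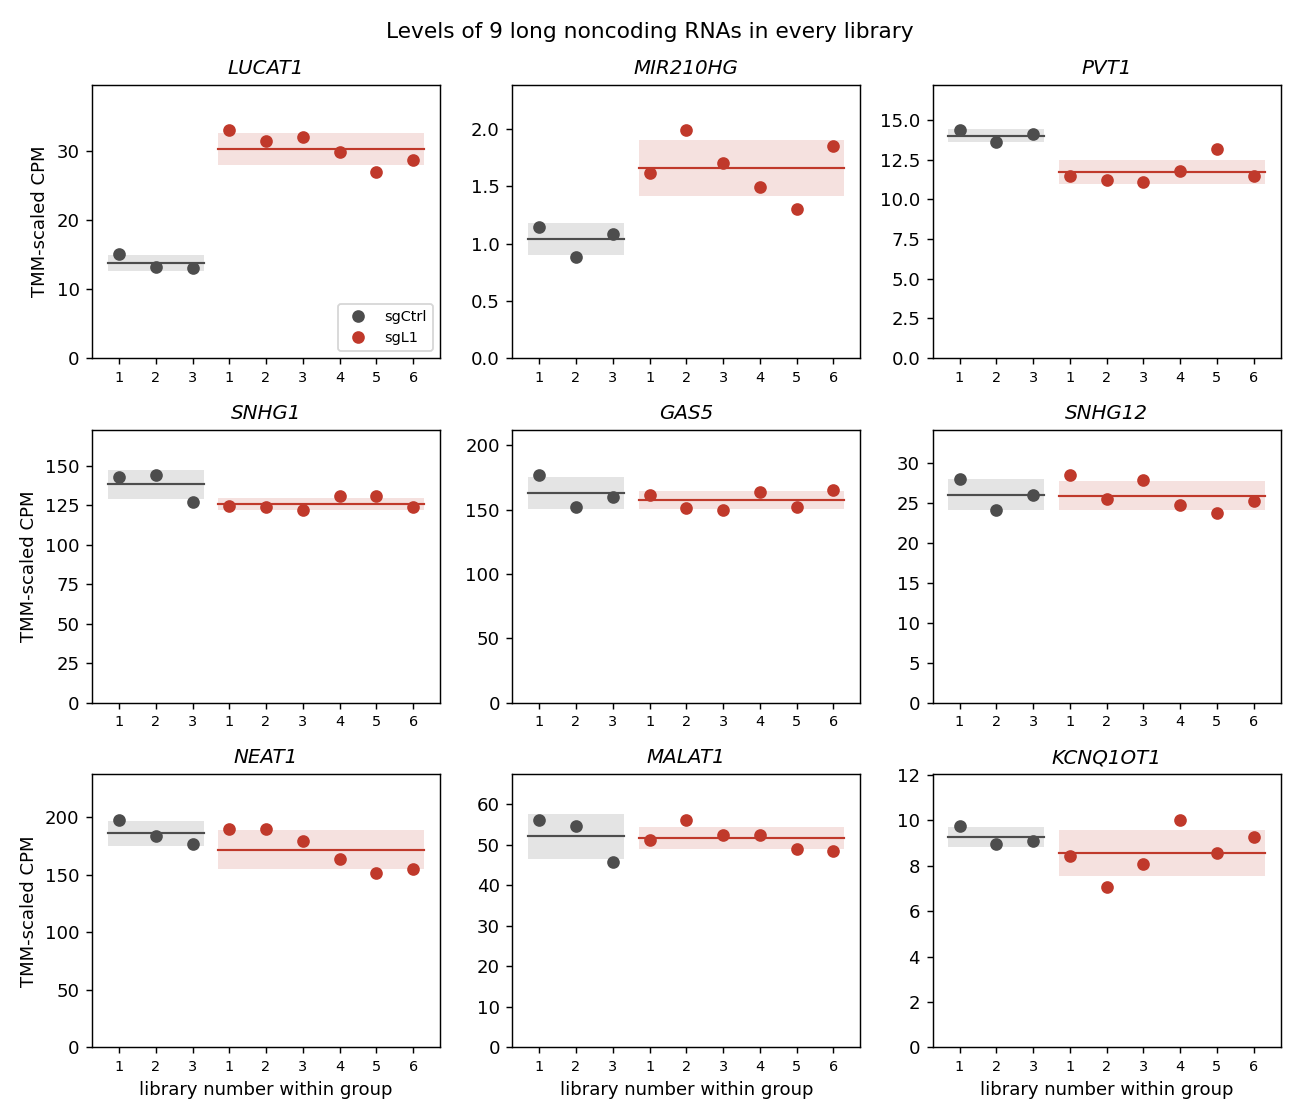
Each panel plots CPM (y axis, from 0) in the 3 sgCtrl libraries (grey) and 6 sgL1 libraries (red) for 1 gene, with a line at the group mean and a band of 1 SD. LUCAT1 and MIR210HG separate upward and PVT1 downward, and for NEAT1 sgL1 libraries 4 to 6 lie below the rest.

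The nuclear RNAs came next. NEAT1 (ENSG00000245532.8, chromosome 11, 65422774 to 65445540, plus strand) is the scaffold of paraspeckles, nuclear bodies that hold RNA-binding proteins. It measured 197.5, 183.3 and 176.5 CPM in sgCtrl and 189.8, 189.5, 179.5, 163.9, 151.2 and 155.1 CPM in sgL1 libraries 1 to 6. These values join 8 annotated transcripts in 1 exon block, so they do not give the level of any single isoform. Libraries 1 to 3 lay within the sgCtrl range, and libraries 4 to 6 lay below every sgCtrl library. Taken over the 9 libraries the log2 fold change was -0.12 (95% interval -0.28 to 0.04; edgeR adjusted p = 0.421). With libraries 4 to 6 alone it was -0.24 (edgeR adjusted p = 2.45e-05), and with 1 to 3 alone 0.0027 (edgeR adjusted p = 0.979). The difference between the library sets was not tested. Among the sgL1 libraries UFL1 was lower in 1 to 3 and NEAT1 in 4 to 6.

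MALAT1 (ENSG00000251562.8, chromosome 11, 65497688 to 65506516, plus strand), an RNA of nuclear speckles, where splicing factors are stored, measured 56.0, 54.6 and 45.7 CPM in sgCtrl. In sgL1 libraries 1 to 6 it measured 51.2, 56.2, 52.5, 52.5, 48.9 and 48.6 CPM, nearly all within the sgCtrl range. The log2 fold change was -0.01, with a 95% interval of -0.15 to 0.12 (edgeR adjusted p = 0.947). The antisense gene AP000769.2, which shares 396 exonic bases with MALAT1, had 0 counts in all 9 libraries.

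KCNQ1OT1 (ENSG00000269821.1, chromosome 11, 2608328 to 2699994, minus strand), the imprinted antisense RNA that silences neighbours such as CDKN1C on the paternal chromosome, measured 9.76, 8.97 and 9.08 CPM in sgCtrl. In sgL1 libraries 1 to 6 it measured 8.42, 7.08, 8.07, 10.02, 8.56 and 9.26 CPM, on both sides of sgCtrl. The log2 fold change was -0.11 (95% interval -0.35 to 0.13; edgeR adjusted p = 0.644). KCNQ1, on the opposite strand with 121 shared exonic bases, had 1 count in 1 library, sgL1 2, and 0 in the rest. CDKN1C, a cyclin-dependent kinase inhibitor, gave 0.44 (edgeR adjusted p = 0.574).

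Of 24 tested messenger RNAs of paraspeckle proteins, 0 rose and 1 fell, with a median log2 fold change of -0.03 against 0.002 for all genes tested. The 1 was HNRNPH3, an RNA-binding protein of paraspeckles, at -0.13 (edgeR adjusted p = 0.0458). RBM14, needed for paraspeckle assembly, gave -0.09 (edgeR adjusted p = 0.269), and SRSF10 and RBM12 gave -0.08 and -0.09. Of 18 nuclear speckle genes, 0 rose and 2 fell, with a median of -0.03. These were the splicing co-activator SRRM1 at -0.19 (edgeR adjusted p = 0.00601) and the splicing factor SRSF7 at -0.17 (edgeR adjusted p = 0.00991). METTL16 and SRRM2 gave -0.16 and -0.11 (edgeR adjusted p = 0.0852 and 0.0939).

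PVT1 (ENSG00000249859.9, chromosome 8, 127794533 to 128101253, plus strand) lies beside the oncogene MYC and is known to be amplified with it and to act on MYC protein. It had 225, 217 and 221 counts in sgCtrl and 177, 181, 176, 198, 223 and 180 counts in sgL1 libraries 1 to 6. In CPM these were 14.4, 13.6 and 14.1 against 11.5, 11.2, 11.1, 11.8, 13.2 and 11.5. All 6 sgL1 libraries lay below sgCtrl, with library 5 close to it. The ratio was 0.835 with a 95% interval of 0.732 to 0.953 (log2 fold change -0.26, SE 0.09), and missed the threshold (edgeR adjusted p = 0.0794). Without sgL1 5, or with sgL1 libraries 1 to 3 alone, it passed, at -0.30 and -0.32 (edgeR adjusted p = 0.0486 and 0.0431). The sgCtrl values spread by 2.72% of their mean, less than the 7.11% that counting alone would give at the median count.

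MYC itself measured 120.2, 117.6 and 115.0 CPM in sgCtrl and 107.8, 111.4, 103.7, 105.3, 110.4 and 107.8 CPM in sgL1. It too lay lower in all 6 sgL1 libraries, at -0.13 on the log2 scale with SE 0.04 (edgeR adjusted p = 0.0688). Of the 14 tested genes lying near the 10 long noncoding RNAs, 1 rose and 0 fell, with a median of 0.02. The 1 was ARRDC3, an arrestin-like protein that guides receptor turnover and a neighbour of LUCAT1. It measured 33.6, 33.8 and 33.7 CPM in sgCtrl and 55.7, 49.4, 57.5, 70.5, 67.6 and 67.5 CPM in sgL1 libraries 1 to 6, which is 0.87 on the log2 scale (SE 0.10; edgeR adjusted p = 6.20e-05). ARRDC3 was highest in sgL1 libraries 4 to 6, whereas LUCAT1 was highest in libraries 1 to 3. PHRF1, near MIR210HG, and FRMD8, near NEAT1, gave -1.65 and 0.14 (edgeR adjusted p = 0.0942 and 0.246), and the sgCtrl values of PHRF1 spread by nearly their mean (5.32 ± 4.80 CPM, SD, n = 3).

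GAS5, SNHG1 and SNHG12 carry snoRNAs in their introns, and their spliced RNAs are known targets of nonsense-mediated decay, a translation-coupled RNA decay. GAS5 (ENSG00000234741.7, chromosome 1, 173863900 to 173868882, minus strand), also known for binding the glucocorticoid receptor, measured 176.9, 152.4 and 159.6 CPM in sgCtrl. In sgL1 libraries 1 to 6 it measured 161.5, 151.2, 149.6, 164.1, 152.3 and 165.5 CPM, overlapping sgCtrl. The log2 fold change was -0.05 (95% interval -0.15 to 0.05; edgeR adjusted p = 0.622). GAS5-AS1, which shares 42 exonic bases on the opposite strand, had 2 to 14 counts per library.

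SNHG1 (ENSG00000255717.6, chromosome 11, 62851988 to 62855914, minus strand) measured 143.3, 144.2 and 127.4 CPM in sgCtrl. In sgL1 libraries 1 to 6 it measured 124.7, 123.8, 121.9, 131.2, 130.7 and 123.8 CPM. All sgL1 libraries lay below sgCtrl 1 and 2, and sgCtrl 3 lay among them. The log2 fold change was -0.13 (95% interval -0.23 to -0.04), which missed the threshold (edgeR adjusted p = 0.0726). It passed without sgCtrl 3 (-0.19, edgeR adjusted p = 0.0243), without sgL1 4 (-0.15, edgeR adjusted p = 0.0270) and with sgL1 libraries 1 to 3 alone (-0.16, edgeR adjusted p = 0.0163). The annotated exons of SNHG1 and SNHG12 overlap snoRNA genes, up to 126 bases (SNORD22) and 137 bases (SNORA16A), and reads there cannot be told apart from the host's.

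SNHG12 (ENSG00000197989.14, chromosome 1, 28578538 to 28583132, minus strand) measured 28.0, 24.1 and 26.0 CPM in sgCtrl. In sgL1 libraries 1 to 6 it measured 28.5, 25.5, 27.9, 24.7, 23.7 and 25.3 CPM, around the same level. The log2 fold change was -0.007 (95% interval -0.17 to 0.15; edgeR adjusted p = 0.977).

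Of 21 further snoRNA host genes tested, 0 rose and 1 fell, with a median of 0.01. SNHG4 fell, from 105.9 CPM (SD 6.29, n = 3) in sgCtrl to 87.5 CPM (SD 6.45, n = 6) in sgL1. Its log2 fold change was -0.27 with SE 0.06 (edgeR adjusted p = 0.00143). SNHG5, SNHG6 and SNHG16 gave 0.16, 0.19 and -0.13 (edgeR adjusted p = 0.0630, 0.184 and 0.227). Of 15 messenger RNAs of nonsense-mediated decay factors, 0 rose and 0 fell in edgeR's test, with a median of 0.02. The closest to the threshold were SMG8 at -0.12 (edgeR adjusted p = 0.328) and UPF3B at 0.12 (edgeR adjusted p = 0.393).

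Of 16 other long noncoding RNAs of hypoxia and stress that could be tested, 1 rose and 0 fell, with a median of 0.02. The 1 was HIF1A-AS2, the antisense RNA at the end of the HIF1A gene. It measured 15.3, 15.7 and 13.6 CPM in sgCtrl and 22.0, 21.3, 19.9, 20.7, 18.4 and 18.6 CPM in sgL1, which is 0.44 on the log2 scale (SE 0.09; edgeR adjusted p = 0.00104). HIF1A, named after its value was seen, gave -0.03 (edgeR adjusted p = 0.745), and whether counting used the strand is not given. NORAD, an RNA that binds PUMILIO proteins, gave 0.08 (edgeR adjusted p = 0.218), RAB11B-AS1 0.54 (edgeR adjusted p = 0.528) and JPX, an RNA of the X inactivation centre, -0.28 (edgeR adjusted p = 0.543).

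Among messenger RNAs of known HIF targets 18 of 20 rose and 0 fell, with a median log2 fold change of 0.43. Of all genes tested, 5.52% rose and 3.98% fell. VEGFA, the main angiogenic factor, gave 0.94, the histone demethylase KDM3A 0.74, the lipase inhibitor ANGPTL4 1.78 and NDRG1 1.38. LUCAT1, at 1.14, lay below ANGPTL4 and NDRG1 and above the rest of the 20. Of 10 NRF2 target messenger RNAs 2 rose and 1 fell, with a median of 0.13, and all 10 lay below LUCAT1. The quinone reductase NQO1 rose by 0.29 (edgeR adjusted p = 1.37e-05) and GCLM, of glutathione synthesis, by 0.17 (edgeR adjusted p = 0.0359). The cystine importer SLC7A11 fell by 0.32 (edgeR adjusted p = 2.425e-04), and the haem oxygenase HMOX1 gave 0.27 (edgeR adjusted p = 0.0852). Which factor, if either, raised LUCAT1 was not tested.

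Of all 1682 long noncoding RNAs tested, 32 rose (1.90%) and 25 fell (1.49%), with a median of -0.002. By adjusted p LUCAT1 came second among these 57. The first was AC006058.1, lower in sgL1 at -0.64 (edgeR adjusted p = 7.56e-11), and the third MIR3142HG, the host of miR-3142 and miR-146a, higher at 1.26 (edgeR adjusted p = 4.86e-10). Both were named after their values were seen.

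**Figure D4:**
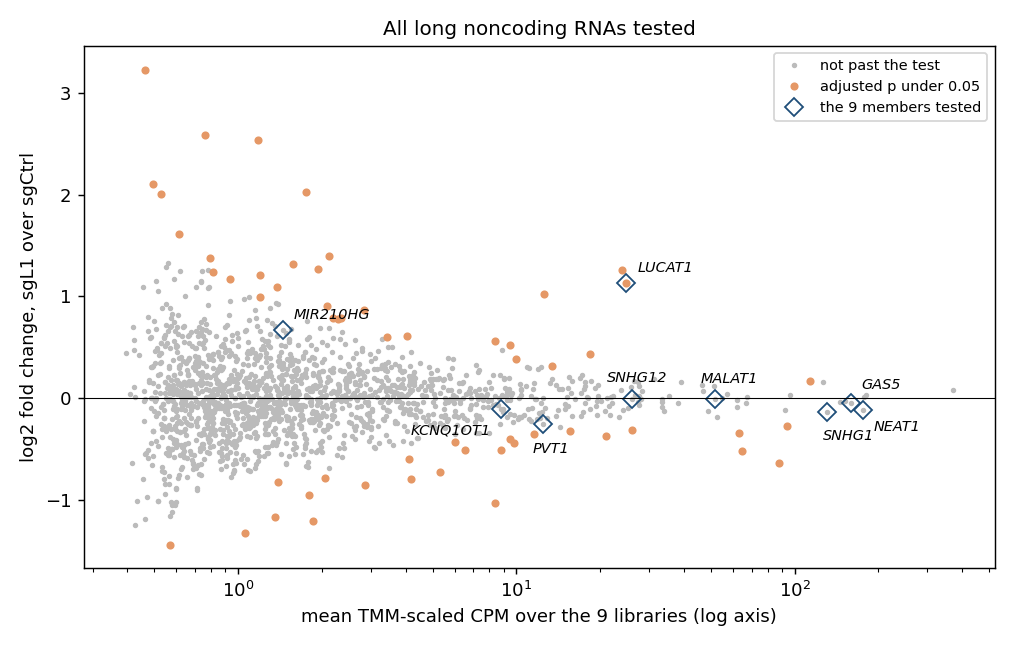
Each point is 1 of the 1682 long noncoding RNAs tested, with mean CPM over the 9 libraries on the x axis (log scale) and log2 fold change on the y axis. Orange points have an adjusted p under 0.05 and open diamonds mark the 9 genes described here. LUCAT1 lies at 1.14 among the few changed RNAs above 10 CPM, and GAS5, SNHG1 and NEAT1 lie near 0 at over 100 CPM.

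Measures of library content also moved. RNAs without a poly(A) tail were scarce in these libraries, 9 of 20 being at 0 in all 9. RNA lacking such a tail may thus be undercounted. The summed level of the 20 was 82.6 to 86.6 CPM in sgCtrl and 88.0 to 103.6 CPM in sgL1. Of 9 tested 1 rose, the histone gene HIST1H1C at 0.22 (edgeR adjusted p = 0.0179). HIST1H1C was also the largest part of the sum, at means of 51.7 CPM in sgCtrl and 60.1 CPM in sgL1. The 13 mitochondrially encoded messenger RNAs took 3.30%, 3.41% and 3.34% of counts in sgCtrl, 3.23%, 3.08% and 2.77% in sgL1 libraries 1 to 3, and 3.37%, 3.34% and 3.32% in libraries 4 to 6. Libraries 1 to 3 thus lay below all the others. Of the 13, MT-ND6 rose and MT-ATP6 fell. The part of these measures in the values of the 10 genes was not tested.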

How the data were processed

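RNA-seq libraries of 9 hypoxic MDA-MB-231 samples were used. Per the submitters' processing notes, fastp 0.20.1, STAR 2.7.7a, featureCounts 2.0.0 and GRCh38 (hg38) were used. Their settings, the annotation release and the use of strand were not given in the sources used here. The authors deposited whole-number counts and FPKM. The deposited FPKM were the counts times constants (to within a relative 6.44e-15 where each library had over 100 counts), so they are no second measurement.

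The 627 rows without a symbol (0.358% to 0.410% of counts) were left out. edgeR 4.0.16 (R 4.3.3; filterByExpr, TMM, robust quasi-likelihood F test, no covariate) compared 6 sgL1 with 3 sgCtrl libraries, with Benjamini-Hochberg adjustment over 15242 genes; it was tested on simulated data first. CPM are TMM-scaled. Loci come from GENCODE release 29, promoter and miRNA sequences from RefSeq. Alternatives used limma 3.58.1, DESeq2 1.42.0, other scalings and filters, left-out libraries, a replicate block, and sgL1 libraries 1 to 3 or 4 to 6 alone.

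The 10 genes, the lists (243 of 247 symbols found, 2 under another symbol) and the alternatives were chosen with earlier results of these data known. Named genes are the 10, UFL1, UFM1, up to 4 genes per list with the smallest adjusted p, and the 3 genes most like LUCAT1; overlapping genes and their neighbours, ADGRV1, CDKN1C, MTAP and IFNE were added with their loci, and marker genes with the defining or changed markers, after values were seen. The 95% intervals of fold changes are edgeR's and include the spread between libraries; counting errors and limits for 0 counts cover counting only. Since the labels name no separate cultures, p-values rest on a spread between samples that may be technical. Chi-square per gene between libraries of a group was 2.30 to 9.29, above the 1 of sampling noise. It was 3.83 to 4.27 within sgL1 libraries 1 to 3, 2.60 to 3.75 within 4 to 6 and 3.11 to 9.29 across these sets. Each library was counted as a sample. The chi-square cannot show separate cultures, since library preparation adds spread too.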

Additional observations from a re-analysis of the deposited data

Results flagged for a closer look

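PVT1 in sgL1 replicate 5 measured 13.17 CPM, while the nearest of the other sgL1 libraries measured 11.8 CPM. This gap is 0.659 of the range over the 6 libraries and exceeds Dixon's 95% critical value. Levels of 10 genes were examined this way, and chance flags about 1 in 20 groups. The library still lay below the lowest sgCtrl value of 13.61 CPM.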

How the results depend on the processing

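LUCAT1 passed under all 22 settings tried, at a log2 fold change of 1.05 to 1.22 in count fits and 0.62 on log2(FPKM + 1), which understates changes of low genes. The number of genes that rose ran from 548 (without sgCtrl 1) and 549 (without sgCtrl 2) to 958 with 1 library left out, and the number that fell from 352 to 800, being 400, 352 and 385 without sgCtrl 1, 2 and 3 and 1053 with sgL1 libraries 1 to 3 alone. Of the 10 genes, 1 rose in every fit with 1 library left out, and 2 on log2(FPKM + 1) and log2(FPKM + 0.1), MIR210HG being the second at 0.24 and 0.57. The number that fell ran from 0 to 1 with 1 library left out, was 2 with sgL1 libraries 1 to 3 alone and 1 with 4 to 6 alone. UFL1 ran from -0.66 (without sgL1 4, edgeR adjusted p = 0.0389) to -0.50 with 1 library left out. It passed with limma-voom (-0.55), without a filter (-0.57), and with sgL1 libraries 1 to 3 (-0.93) or 4 to 6 (-0.28) alone.

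Deviations of same-numbered samples from their group means had correlations of 0.0103, -0.129 and -0.000103 over 13638 genes. For sgL1 that mean covers libraries 1 to 6, so any difference between 1 to 3 and 4 to 6 enters. The check therefore cannot exclude pairing. With the replicate number as a block, in which sgL1 4 to 6 stand alone, 1 of the 10 genes fell, SNHG1 at -0.16 (edgeR adjusted p = 0.0320), UFL1 gave -0.93 (edgeR adjusted p = 2.33e-08), and 3 signs turned: NEAT1 0.0047, MALAT1 0.035 and SNHG12 0.067.

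Further sign changes, all of values near 0 and past no threshold, were these. With sgL1 libraries 1 to 3 alone NEAT1 was 0.0027, MALAT1 0.031 and SNHG12 0.065, and with 4 to 6 alone KCNQ1OT1 was 0.0019. With 1 library left out MALAT1 ran from -0.099 to 0.038 (above 0 without sgCtrl 1, sgCtrl 2 or sgL1 6), GAS5 from -0.095 to 0.0096 (above 0 without sgCtrl 1) and SNHG12 from -0.059 to 0.044 (above 0 without sgCtrl 1, sgL1 4 or sgL1 5). The cause was not tested. Of 196 fits of single genes, 173 kept their direction and side of the threshold, 9 passed it newly and 14 changed sign. MIR210HG and KCNQ1OT1 had no value with a mean FPKM of at least 1. Other scalings moved the median of all genes by -0.002 to -0.006 on the log2 scale. Among the 9 genes tested, depth limits MIR210HG most, at 14 to 32 counts per library; MIR31HG, at 0 counts, could not be tested.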
